A study of Mus musculus with 6 samples.

Results

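Integrins and cadherins were followed in Flk1+ cells sorted from mouse embryoid bodies at day 4, as 90 probe sets of 43 genes out of 45101 probe sets on the array. Members were every probe set annotated to a single integrin alpha, integrin beta or numbered cadherin symbol, which gave 53 probe sets of 23 integrin genes and 37 probe sets of 20 cadherin genes. Cdh5, the endothelial cadherin, was left out by the choice of members, and Itga2b carries a symbol outside it. RNA was hybridised to 6 Affymetrix arrays in 3 groups of 2. WT Scl+ and WT Scl- were Flk1+ cells of a wild-type ES line, derived from R1 ((129/Sv x 129/Sv-CP)F1 blastocyst), in which human CD4 knocked into the Scl locus reports Scl on the surface. They were sorted as hCD4+ and hCD4-. SclKO was Flk1+ cells of an Scl knockout line derived from J1 (129S4/SvJae). The titles call them Scl negative, but the sorting protocol gives Flk1 alone as their gate. Set against either WT group, effects of the knockout, of the ES line and of the gate cannot be told apart. All lines spent 2 days in pre-EB medium and then 4 days as embryoid bodies in the same serum medium. The labels do not say that the replicates of a group are separate cultures; the p-values then cover only the spread between these arrays, which may be technical.

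Integrins are receptors made of an alpha and a beta chain that join the matrix outside the cell to the actin skeleton inside. The alpha chain largely sets the ligand, and Itgb1 pairs with many alpha chains. Classical cadherins join neighbouring cells by binding the same cadherin on the next cell and hold actin through catenins. During gastrulation, cells that leave the epiblast turn down Cdh1 (E-cadherin) and turn on Cdh2 (N-cadherin). Blood precursors later carry alpha4 integrins, and platelets carry the pair of Itga2b and Itgb3. Scl (gene Tal1) is a transcription factor required for blood formation that binds the E-box, a short DNA motif, together with E proteins.

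Levels are the natural log of the deposited values, and differences are log units. The base of the values is not stated: 1 log unit is 2-fold if the natural log is an RMA log2 value, or 2.72-fold in the values as deposited, and folds are given in that order. A gene is described by its probe set with the highest mean, and its level is compared only with the same probe set on other arrays. The limit for dim probe sets was each array's 40th percentile, between 4.54 and 4.59. A gene was tested if it lay above the limit on at least 2 of 6 arrays. Of the 43 genes 25 were tested, 14 integrins and 11 cadherins, and 18 of them lay above the limit on all 6 arrays. A gene that passed on only some arrays may have passed through the group where it was high. The sort marker Kdr lay between 10.83 and 11.35 on all arrays. Tal1 was at 8.65 and 8.78 in WT Scl+, 6.52 and 7.97 in WT Scl-, and 5.71 and 6.14 in SclKO, though no source used here says whether its probe set reads the deleted part of the gene. WT Scl+ replicate 2 stood apart, at -51.3 on the first principal component against -9.86 to 26.0 for the others. Values without it are therefore given beside many of the main results, but not beside those of Cdh4, Itga9, Itga4, Itgb3 and Fermt3.

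None of the 25 genes passed the test in any comparison (limma, Benjamini-Hochberg over 12923 genes). Between WT Scl+ and WT Scl-, the cadherins Cdh11, Cdh2 and Cdh4 and the integrins Itga6 and Itgb5 lay lower in WT Scl+ with no overlap of the arrays. Cdh1, Itga9, Itga4, Itgb3, Itga3, Itga5 and Cdh6 lay higher with no overlap. These were 7 higher and 5 lower of 25 genes, where 18.9% of all genes were higher and 18.5% lower without overlap. For cadherins alone the counts were 2 and 3 of 11, and for integrins 5 and 2 of 14. Lack of overlap says nothing of size here, since Cdh6 and Itga5 are counted with a difference of 0.04. Calls at an adjusted p under 0.05 were 0 of 25 among members and 0.0% of all genes; at an unadjusted p under 0.05, 0 members were higher and 5 lower, against 9.14% of all genes, 5.4% higher and 3.74% lower. The median difference was 0.03 for integrins and -0.01 for cadherins, beside -0.02 over all genes tested. With the filter at the 60th percentile, which leaves fewer genes, these medians were -0.08 and -0.66.

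Between SclKO and WT Scl+, Cdh11, Itga8, Cdh2, Itga1, Cdh4, Itgb5, Cdh6, Itga6, Itgb4, Itga5 and Cdh3 lay higher in SclKO without overlap. Itga4, Itga9, Itgb3, Cdh16, Cdh15, Cdh23, Itga3 and Itgav lay lower. That is 11 higher and 8 lower of 25 genes, where 23.2% and 20.2% of all genes did so. No member was called, beside 0.00774% of all genes; at an unadjusted p under 0.05, 7 members were higher and 1 lower, against 14.0% of all genes, 7.16% higher and 6.8% lower. The median difference was 0.03 for integrins and 0.13 for cadherins, beside 0.04 over all genes, and 0.21 and 0.84 with the filter at the 60th percentile. This comparison and the one before share the WT Scl+ arrays, so their opposite signs are not separate evidence. Without WT Scl+ replicate 1, which leaves that group only the array that stood apart, Cdh11, Cdh2 and Itga6 passed against WT Scl- (limma adjusted p = 0.0419, 0.0433 and 0.0419), and Cdh11, Cdh2, Itga1, Itga6 and Itgb5 between SclKO and WT Scl+ (limma adjusted p from 0.0259 to 0.0488). The lone array is then assumed to vary like the other groups. Without any other array, 0 members passed.

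Between SclKO and WT Scl-, member differences ran from -0.4 for Cdh16 to 1.47 for Cdh1. The arrays did not overlap for 8 genes higher and 3 lower in SclKO, of 25, where 22.9% and 18.7% of all genes did so. Higher were Cdh1, Cdh6, Itga1, Itga5, Cdh2, Itgb4, Itgb5 and Itga3, and lower were Cdh16, Itga6 and Cdh23. No member was called, beside 0.00774% of all genes; at an unadjusted p under 0.05, Cdh1 and Cdh6 were higher and 0 members lower, against 5.53% of all genes, 3.14% higher and 2.38% lower. The median difference was 0.02 for integrins and 0.18 for cadherins, beside 0.02 over all genes.

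**Figure D1:**
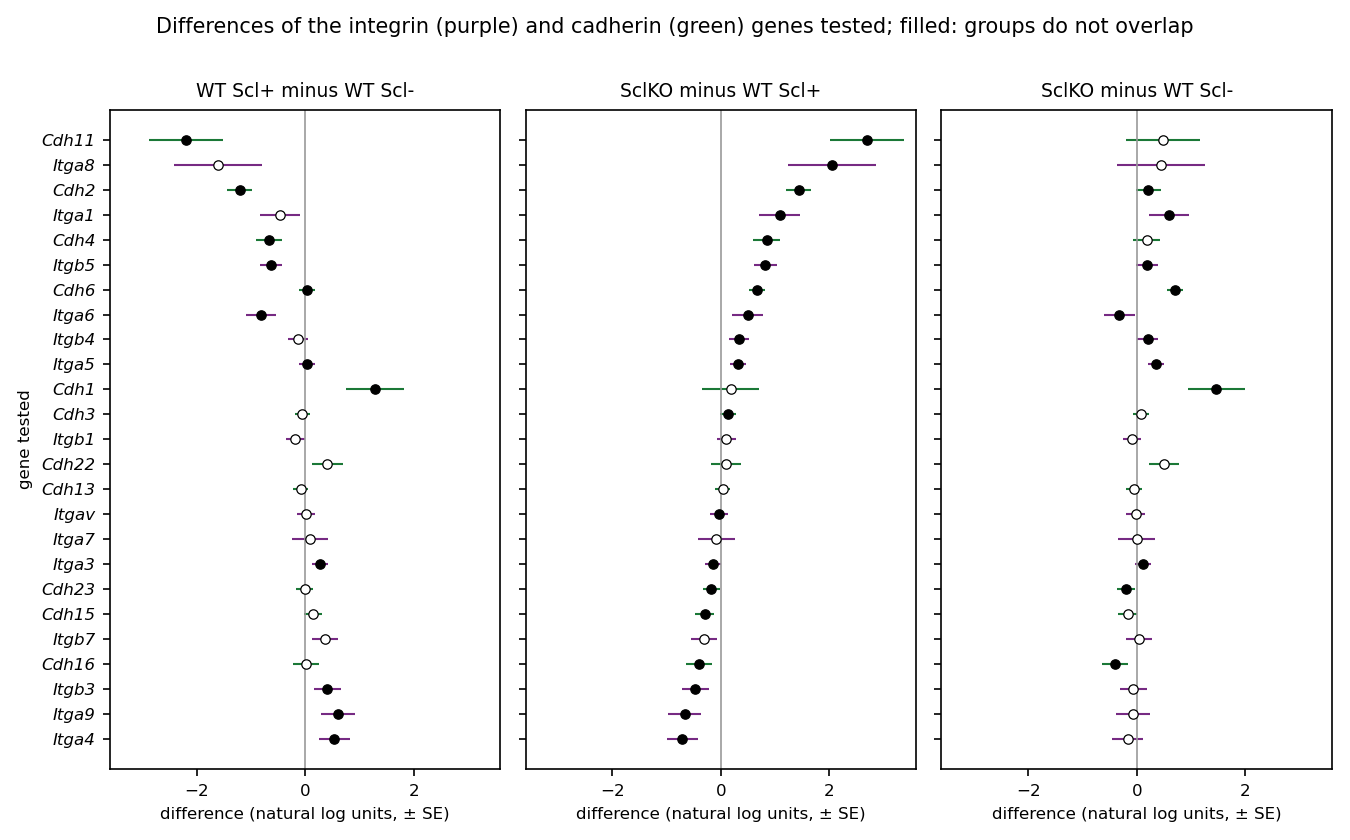
Differences of the 25 genes tested, with 1 panel for each comparison; points are fitted differences in natural log units, bars are their SE, and filled points mark genes whose 2 arrays of each group did not overlap. Cdh11 lay at -2.2 in the left panel and 2.69 in the middle one, which share the WT Scl+ arrays, and at 0.49 in the right one.

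Cdh1 encodes E-cadherin, the cadherin of epithelia and undifferentiated ES cells. Its level was 9.29 and 7.71 in WT Scl+, 7.55 and 6.87 in WT Scl-, and 8.4 and 8.97 in SclKO. WT Scl- was the low group, and the SclKO arrays lay between those of WT Scl+. WT Scl+ lay 1.29 log units above WT Scl- (SE 0.53, limma adjusted p = 0.542), and SclKO 1.47 above it (SE 0.53, 2.78-fold or 4.37-fold, limma adjusted p = 0.884). The WT difference was 0.5 without WT Scl+ replicate 1 and 2.08 without replicate 2. SclKO minus WT Scl+ was 0.18 and took the other sign, -0.61, without WT Scl+ replicate 2. WT Scl+ replicate 1, the higher of its group for Cdh1, was also the higher for another epithelial gene. The tight-junction gene Cldn6 was at 8.99 and 6.7 in WT Scl+, 6.88 and 6.45 in WT Scl-, and 8.28 and 8.35 in SclKO. The 9 genes listed as epithelial and ES markers, all tested, had a mean level of 9.0 and 7.61 in WT Scl+, 8.0 and 7.92 in WT Scl-, and 8.68 and 8.56 in SclKO. Against WT Scl-, 5 of these 9 lay higher in WT Scl+ by group means. Krt8 (-0.45), Pou5f1 (-0.43), Nanog (-0.36) and Krt18 (-0.21) lay lower. The part of the 9 markers in the Cdh1 values was not tested. In bulk samples, fewer cells of a type and less RNA per cell cannot be told apart.

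Cdh2 encodes N-cadherin, which mesoderm carries after leaving the epiblast. Its level was 9.79 and 9.24 in WT Scl+, 10.89 and 10.56 in WT Scl-, and 10.94 and 10.93 in SclKO. Both WT Scl+ arrays lay under all 4 others. From WT Scl- to WT Scl+ the value was -1.21 log units (SE 0.23, 2.32-fold or 3.36-fold, limma adjusted p = 0.399), and SclKO lay 1.43 above WT Scl+ (SE 0.23, 2.69-fold or 4.17-fold, limma adjusted p = 0.129). Without WT Scl+ replicate 2 these were -0.94 and 1.15. A second probe set gave -1.47 and 1.77. SclKO lay 0.21 above WT Scl- (SE 0.23), or 0.05 without WT Scl- replicate 2. The log difference between Cdh1 and Cdh2, which has a meaning only between arrays, was -0.5 and -1.53 in WT Scl+, -3.34 and -3.69 in WT Scl-, and -2.54 and -1.96 in SclKO. It set the groups in the order WT Scl+, SclKO, WT Scl- with no overlap; it was formed after the values were seen and was not tested.

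Cdh4 encodes R-cadherin, a classical cadherin close to N-cadherin. Its level was 5.51 and 5.86 in WT Scl+, 6.64 and 6.06 in WT Scl-, and 6.57 and 6.49 in SclKO. The WT Scl+ arrays were again the lowest, by -0.66 log units against WT Scl- (SE 0.24) and with SclKO 0.84 above them (SE 0.24, limma adjusted p = 0.229). Its probe sets did not move alike: a second gave -1.37 and 1.64, but the other 0.06 and -0.22. Cdh3 (P-cadherin) and Cdh15 (M-cadherin of muscle) varied little. Cdh3 lay between 5.59 and 5.83 on all arrays, and no difference exceeded 0.13. Cdh15 was at 6.01 and 6.26 in WT Scl+, 5.89 and 6.12 in WT Scl-, and 5.74 and 5.93 in SclKO. Its SclKO arrays lay under those of WT Scl+, at -0.3 (SE 0.17, limma adjusted p = 0.496; -0.18 without WT Scl+ replicate 2), and overlapped WT Scl-.

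Cdh11, a type II cadherin of mesenchyme, had the largest difference of the 25 genes, by the probe sets used, in both comparisons with WT Scl+. Its level was 8.44 and 6.29 in WT Scl+, 9.96 and 9.17 in WT Scl-, and 10.28 and 9.83 in SclKO. The WT Scl+ arrays lay under all others but were themselves far apart. WT Scl+ stood at -2.2 log units from WT Scl- (SE 0.68, 4.6-fold or 9.03-fold, limma adjusted p = 0.442), and SclKO lay 2.69 above WT Scl+ (SE 0.68, 6.46-fold or 14.8-fold, limma adjusted p = 0.196). Without WT Scl+ replicate 2 they were -1.12 and 1.61, and without replicate 1 they were -3.28 and 3.77. The second Cdh11 probe set spread less, at 7.57 and 6.85 in WT Scl+, 9.36 and 8.59 in WT Scl-, and 9.33 and 9.15 in SclKO. It gave -1.77 and 2.03 (SE 0.34 each; limma adjusted p = 0.439 and 0.142 over 28363 probe sets).

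Cdh6, a type II cadherin of kidney and neural crest, was among the members higher in SclKO than on all 4 WT arrays. Its level was 4.88 on both WT Scl+ arrays, 4.87 and 4.82 in WT Scl-, and 5.45 and 5.65 in SclKO. SclKO lay above WT Scl+ by 0.67 log units (SE 0.15, limma adjusted p = 0.172) and above WT Scl- by 0.71 (SE 0.15, 1.64-fold or 2.04-fold, limma adjusted p = 0.81). Neither difference passed, and they moved only between 0.57 and 0.81 when any array was left out. The other Cdh6 probe set lay under the limit on all arrays. Cdh22, a further type II cadherin, lay between 4.53 and 5.58 with overlapping groups.

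Among the remaining cadherins, Cdh13 (T-cadherin, held by a lipid anchor and lacking a catenin-binding tail) gave unlike results by probe set. The probe set used lay between 4.95 and 5.12 on all arrays. A dimmer one was at 4.24 and 3.84 in WT Scl+, 5.08 and 5.44 in WT Scl-, and 4.61 and 4.77 in SclKO, with groups apart in all 3 comparisons. Its WT Scl+ arrays were both under the limit, so its difference to WT Scl-, -1.22 as measured (SE 0.22, limma adjusted p = 0.439 over probe sets), was -0.7 at the limit. Cdh16 (kidney cadherin) was at 4.82 and 5.43 in WT Scl+, 5.27 and 4.94 in WT Scl-, and 4.67 and 4.75 in SclKO. SclKO lay lowest, by -0.41 (SE 0.24) against WT Scl+ and -0.4 (SE 0.24) against WT Scl-, the first being -0.11 without WT Scl+ replicate 2. Cdh23, a cadherin of hair cells, was at 5.7 and 5.41 in WT Scl+, 5.56 and 5.57 in WT Scl-, and 5.35 and 5.38 in SclKO. SclKO again lay lowest, by -0.18 and -0.2 (SE 0.16 each), the first being -0.04 without WT Scl+ replicate 1 and -0.33 without replicate 2. The 9 cadherin genes not tested were Cdh7, Cdh8, Cdh9, Cdh10, Cdh17, Cdh18, Cdh19, Cdh20 and Cdh26, mostly cadherins known from neural tissue or, for Cdh17, from gut.

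**Figure D2:**
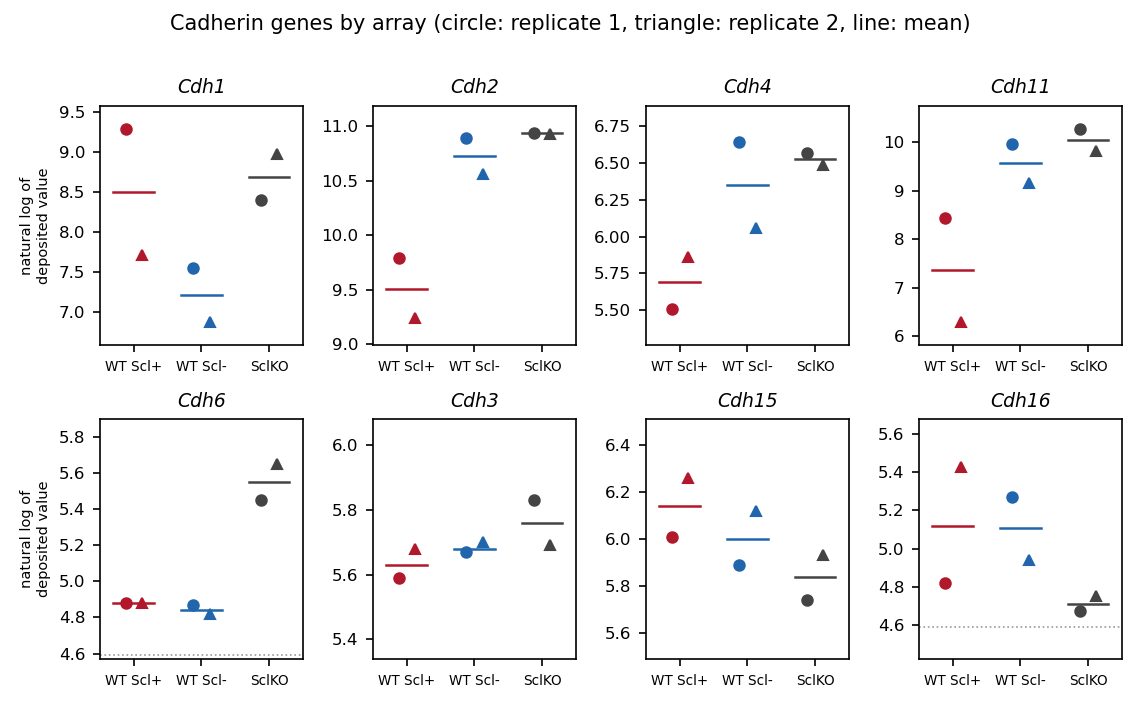
Levels of 8 cadherin genes as the natural log of the deposited value, with a panel and a scale for each gene; circles are replicate 1, triangles replicate 2, lines group means, and the dotted line is the limit for dim probe sets at 4.59. Both WT Scl+ arrays lie lowest for Cdh2, Cdh4 and Cdh11, and both SclKO arrays lie highest for Cdh6.

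Of the laminin-binding alpha chains, Itga6 lay lower in WT Scl+. Itga6 pairs with Itgb1 or Itgb4 and is found on many stem cells. Its level was 8.58 and 7.73 in WT Scl+, 8.98 and 8.95 in WT Scl-, and 8.66 and 8.62 in SclKO. The groups stood apart in the order WT Scl-, SclKO, WT Scl+. The value for WT Scl+ against WT Scl- was -0.81 (SE 0.28, limma adjusted p = 0.48), -0.38 without WT Scl+ replicate 2, and -0.68 by the second probe set (SE 0.16). Between SclKO and WT Scl+ it was 0.49 by either probe set, but 0.06 without WT Scl+ replicate 2 for the one used and 0.37 for the second. Itga3, another laminin receptor chain, was at 6.69 and 6.91 in WT Scl+, 6.54 and 6.53 in WT Scl-, and 6.66 and 6.64 in SclKO. WT Scl+ was highest, by 0.27 over WT Scl- (SE 0.15), or 0.16 without WT Scl+ replicate 2. A different Itga3 probe set gave 1.18 (SE 0.25, limma adjusted p = 0.439 over probe sets), from 6.71 and 6.95 against 5.91 and 5.39. The remaining tested one gave 0.3 (SE 0.22) with overlapping groups. Itga7, known from muscle, lay between 4.31 and 5.35 with overlapping groups.

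The alpha4 and alpha9 chains bind Vcam1 and an alternative part of fibronectin and are carried by migrating blood and mesoderm cells. Itga9 was at 8.22 and 8.11 in WT Scl+, 7.1 and 8.02 in WT Scl-, and 7.65 and 7.33 in SclKO. WT Scl+ was highest, and WT Scl- replicate 2 lay close beneath it. The difference was 0.6 log units against WT Scl- (SE 0.31, limma adjusted p = 0.641), 0.14 without WT Scl- replicate 1, and SclKO stood at -0.67 from WT Scl+ (SE 0.31, limma adjusted p = 0.404). All 3 Itga9 probe sets kept WT Scl+ above each other group without overlap, with 0.6 to 0.81 against WT Scl- and -0.75 to -0.53 for SclKO. Itga4 was at 4.86 and 5.14 in WT Scl+, 4.3 and 4.62 in WT Scl-, and 4.67 and 3.92 in SclKO. WT Scl+ lay highest, but 1 array of each other group was under the limit. It stood 0.54 above WT Scl- (SE 0.28, limma adjusted p = 0.64), and SclKO at -0.71 from it (SE 0.28, limma adjusted p = 0.348), or 0.4 and -0.37 at the limit. The SclKO value ran from -1.08 to -0.33 with either SclKO array left out. Another tested probe set gave -0.07 and 0.08.

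Of the alpha chains that bind the RGD motif of matrix proteins, Itga8, a chain of mesenchyme, had the widest range. Its level was 6.59 and 4.33 in WT Scl+, 7.87 and 6.26 in WT Scl-, and 7.7 and 7.32 in SclKO. WT Scl+ replicate 2 was under the limit, and WT Scl+ replicate 1 lay within the range of WT Scl-. SclKO lay above WT Scl+ by 2.05 log units (SE 0.81, 4.15-fold or 7.78-fold, limma adjusted p = 0.345), or 0.92 without WT Scl+ replicate 2. WT Scl+ differed from WT Scl- by -1.61 (SE 0.81, limma adjusted p = 0.628), or -0.47 without that array. The second probe set gave 2.75 and -2.29 with no overlap (1.86 and -1.4 at the limit). Itga5, the fibronectin receptor chain, was at 7.4 and 7.41 in WT Scl+, 7.36 and 7.37 in WT Scl-, and 7.85 and 7.59 in SclKO. By this probe set SclKO was highest, by 0.31 over WT Scl+ (SE 0.15) and 0.35 over WT Scl- (SE 0.15, limma adjusted p = 0.884). Another tested Itga5 probe set gave 0.13 over WT Scl+, with overlapping groups, and 0.51 over WT Scl-. A dimmer one gave 0.52 over WT Scl+ and 0.05 over WT Scl-, the latter with overlapping groups. At the limit these were 0.03 and -0.11. Itgav was at 9.88 and 9.89 in WT Scl+, 10.06 and 9.67 in WT Scl-, and 9.87 and 9.83 in SclKO, and no difference exceeded 0.04 in size by this probe set. The other 3 tested Itgav probe sets gave -0.03 to 0.42 between SclKO and WT Scl+.

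Of the collagen-binding chains only Itga1 was tested. Its level was 5.44 and 4.33 in WT Scl+, 5.27 and 5.45 in WT Scl-, and 5.73 and 6.2 in SclKO. SclKO was highest, by 1.08 log units over WT Scl+ (SE 0.37, limma adjusted p = 0.294) and 0.6 over WT Scl- (SE 0.37, limma adjusted p = 0.95). The first was 0.52 without WT Scl+ replicate 2, which was under the limit. A dimmer Itga1 probe set also put SclKO above WT Scl-, by 0.76 as measured and 0.13 at the limit. Between SclKO and WT Scl+ that probe set gave 0.29 with overlapping groups, or 0.08 at the limit. For WT Scl+ against WT Scl- it gave 0.47, where the probe set used gave -0.47. The integrin genes not tested were Itga2, Itga10, Itgae, Itgal, Itgam, Itgax, Itgb2, Itgb6 and Itgb8. Among them are all 4 leukocyte alpha chains on the array, and Itgb2, the partner of Itgal, Itgam and Itgax. The 18 untested member genes lay between 1.42 and 4.55, Itgae being above the limit on 1 array and the others on 0.

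Itgb1, the partner of most alpha chains above, was at 10.6 and 10.27 in WT Scl+, 10.66 and 10.59 in WT Scl-, and 10.62 and 10.45 in SclKO. The groups overlapped in every comparison, and the largest difference was -0.18 (SE 0.17), for WT Scl+ against WT Scl-. Its 5 tested probe sets gave -0.28 to -0.06 there. Itgb5, which pairs with Itgav, was at 8.09 and 7.64 in WT Scl+, 8.48 and 8.53 in WT Scl-, and 8.85 and 8.53 in SclKO. Both WT Scl+ arrays were lowest, by -0.63 log units against WT Scl- (SE 0.21, 1.55-fold or 1.88-fold, limma adjusted p = 0.46), and SclKO lay 0.82 above them (SE 0.21, 1.77-fold or 2.27-fold, limma adjusted p = 0.196). Without WT Scl+ replicate 2 these were -0.41 and 0.6. All 4 Itgb5 probe sets had WT Scl+ lowest without overlap, with -1.03 to -0.63 and 0.71 to 1.15.

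Itgb3 pairs with Itgav or, in megakaryocytes, with Itga2b. The probe set used was at 5.12 and 4.86 in WT Scl+, 4.42 and 4.75 in WT Scl-, and 4.22 and 4.84 in SclKO. WT Scl+ lay highest, by 0.41 over WT Scl- (SE 0.25, limma adjusted p = 0.696), with SclKO at -0.47 (SE 0.25, limma adjusted p = 0.474), which ran from -0.77 to -0.16 with either SclKO array left out. At the limit these were 0.33 and -0.3. The second probe set had a wider range, at 5.56 and 5.39 in WT Scl+, 3.33 and 5.01 in WT Scl-, and 3.44 and 3.31 in SclKO. By it SclKO stood at -2.1 log units from WT Scl+ as measured (SE 0.5, limma adjusted p = 0.21 over probe sets) and -0.91 at the limit, since both SclKO arrays were under it. WT Scl- replicate 2 was again near WT Scl+, and the difference of 1.31 between those groups was 0.47 without WT Scl- replicate 1. Itga2b was at 7.87 and 8.54 in WT Scl+, 6.86 and 7.33 in WT Scl-, and 6.03 and 6.84 in SclKO. Itgb7, the other partner of Itga4, lay between 5.28 and 6.02 with overlapping groups. Itgb4, the partner of Itga6 in epithelia, lay between 4.47 and 5.05 and was 0.33 higher in SclKO than in WT Scl+ (SE 0.19). For Itgb4, WT Scl+ replicate 1 was under the limit, and this difference was 0.3 at the limit. It was 0.12 without that array and 0.54 without WT Scl+ replicate 2. Of the tested members, Itga3, Itgb3 and Itgb4 lie on chromosome 11. Over its 1119 tested genes, the median of SclKO minus either WT group was -0.15; the part of this shift in their values was not tested.

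**Figure D3:**
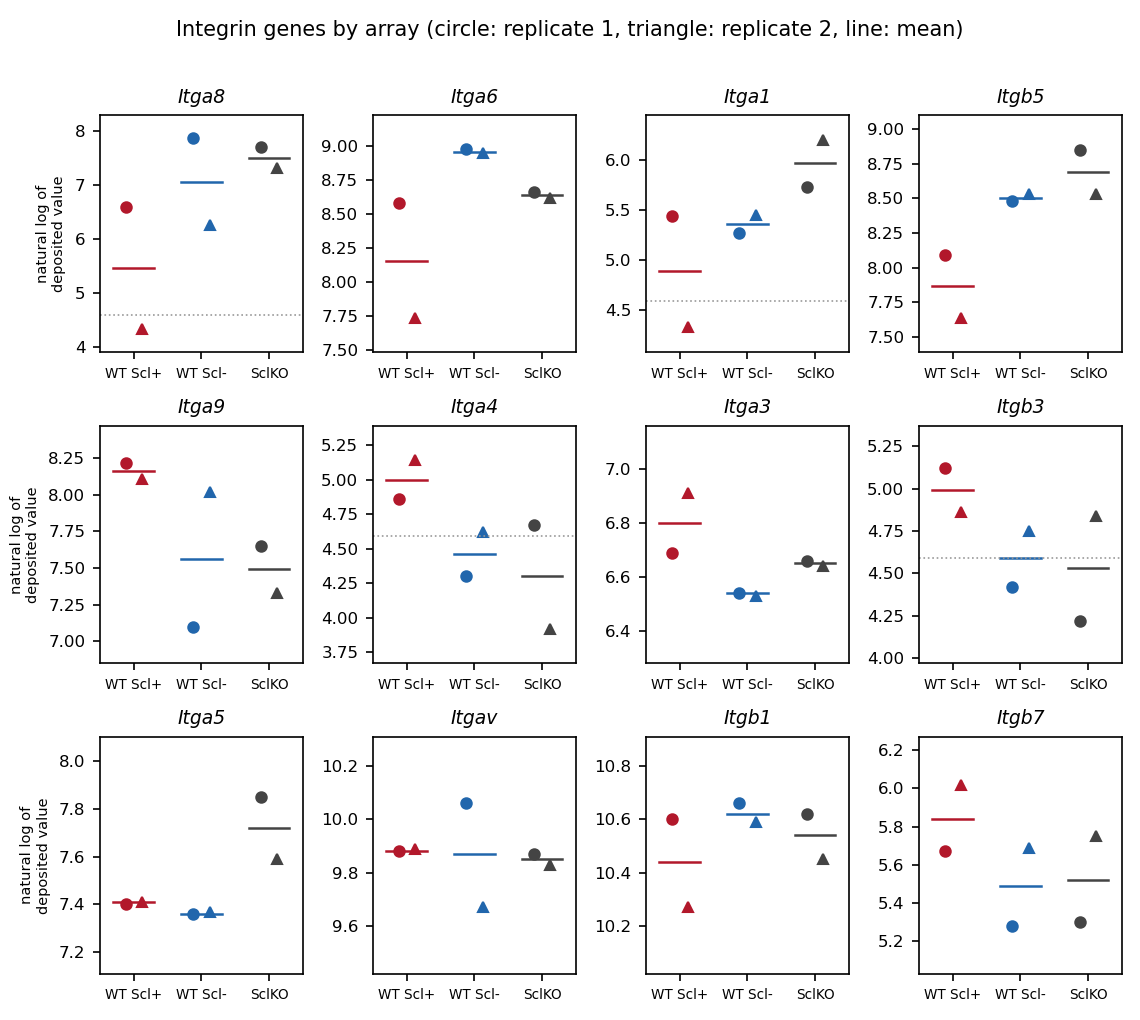
Levels of 12 integrin genes as the natural log of the deposited value, with a panel and a scale for each gene; circles are replicate 1, triangles replicate 2, lines group means, and the dotted line is the limit for dim probe sets at 4.59. WT Scl+ is lowest for Itgb5 and Itga6 and highest for Itga9, Itga4, Itga3 and Itgb3, and WT Scl+ replicate 2 is the lowest array for Itga8 and Itga1.

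Probe sets of a gene were compared for the 15 genes with several tested. Between SclKO and WT Scl+, all probe sets of a gene had 1 sign in 12 of 15 genes, the exceptions being Cdh4, Itga4 and Itgav. Between WT Scl+ and WT Scl- this held for 10 genes, and between SclKO and WT Scl- for 9. Cdh11, Cdh2, Itga6, Itga9, Itgb3 and Itgb5 kept WT Scl+ apart from each other group in every tested probe set. Of the 51 tested member probe sets, 13 were higher and 18 lower without overlap in WT Scl+ against WT Scl-, where 16.6% and 21.2% of all probe sets were. The counts between SclKO and WT Scl+ were 24 and 13, against 24.4% and 18.2%, and between SclKO and WT Scl-, 13 and 6, against 21.7% and 19.5%. In the fit over probe sets limma called 0 of 51 in each comparison, beside 0.0%, 0.0106% and 0.0106% of all probe sets. Probe sets of a gene read the same RNA, so they are not replicates.

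**Figure D4:**
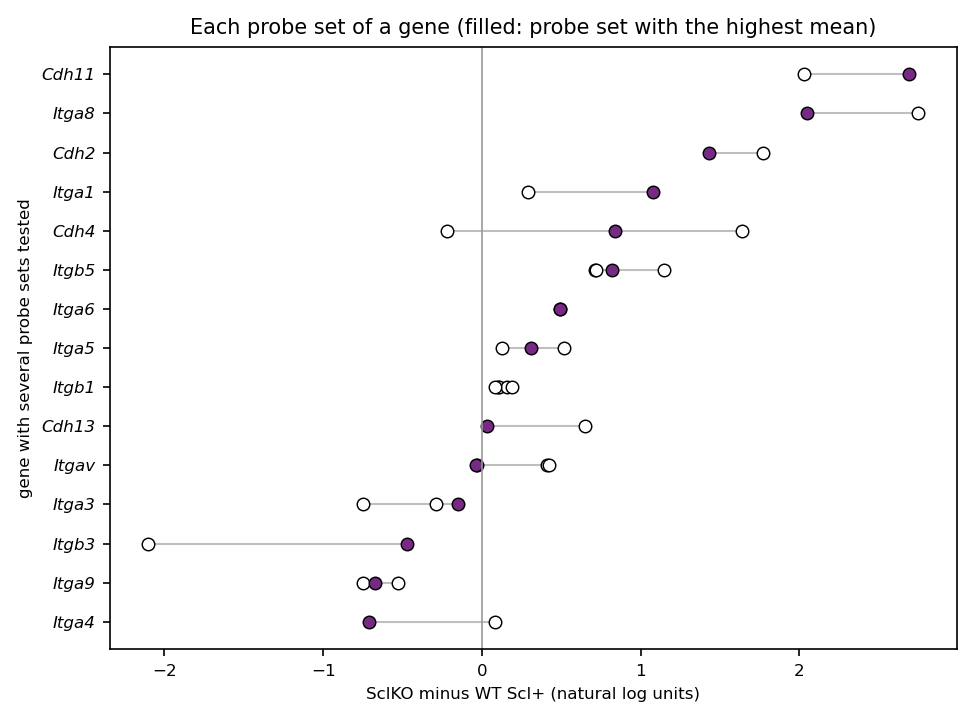
Difference between SclKO and WT Scl+ in natural log units for every tested probe set of the 15 genes with several; filled points are the probe set with the highest mean and lines join the probe sets of a gene. Cdh11, Itga8 and Cdh2 lie to the right of 0 with each probe set, while Itgb3 spans -2.1 to -0.47.

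Sequence before the gene start is shown for 4 integrins, a pair that lay higher in WT Scl+ (Itga9 and Itga4) and a pair with the lowest WT Scl+ mean (Itgb5 and Itga8); they were chosen after the values were seen. Each is the 250 bases before the start in RefSeq, assembly GRCm38.p6, written 5′ to 3′ on the gene's strand. Capitals mark E-boxes (CANNTG, which reads as the same motif on both strands). The windows are chr9:118711442-118711691 on the plus strand, chr2:79255176-79255425 plus, chr16:33829415-33829664 plus and chr2:12301945-12302194 minus.
Itga9: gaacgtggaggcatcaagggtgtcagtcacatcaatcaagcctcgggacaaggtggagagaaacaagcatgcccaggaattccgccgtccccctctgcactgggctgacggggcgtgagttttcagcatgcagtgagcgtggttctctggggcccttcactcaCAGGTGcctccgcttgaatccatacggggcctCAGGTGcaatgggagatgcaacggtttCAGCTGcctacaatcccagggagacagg
Itga4: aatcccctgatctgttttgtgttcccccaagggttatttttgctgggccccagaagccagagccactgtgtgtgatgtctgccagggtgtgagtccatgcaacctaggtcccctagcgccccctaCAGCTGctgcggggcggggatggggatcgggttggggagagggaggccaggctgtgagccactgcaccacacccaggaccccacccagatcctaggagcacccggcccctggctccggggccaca
Itgb5: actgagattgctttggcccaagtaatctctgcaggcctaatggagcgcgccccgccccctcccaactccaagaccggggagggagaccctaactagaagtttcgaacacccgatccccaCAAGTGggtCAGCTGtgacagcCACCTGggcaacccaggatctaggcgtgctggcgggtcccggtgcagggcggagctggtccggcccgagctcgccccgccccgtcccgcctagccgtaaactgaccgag
Itga8: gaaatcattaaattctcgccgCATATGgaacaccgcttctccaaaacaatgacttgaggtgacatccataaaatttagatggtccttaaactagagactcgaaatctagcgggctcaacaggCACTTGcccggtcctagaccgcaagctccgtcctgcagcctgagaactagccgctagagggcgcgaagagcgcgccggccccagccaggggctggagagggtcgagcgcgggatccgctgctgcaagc
Itga9 and Itgb5 held 3 E-boxes each, Itga8 held 2 and Itga4 held 1. Of all 32851 windows of this length, 66.2% held at least 1, 31.8% at least 2 and 12.2% at least 3. Itga9 and Itgb5, which lay on opposite sides in WT Scl+, had the same number. In Itga9 the E-boxes began 87, 55 and 28 bases before the start, and in Itgb5 they began 131, 122 and 109 bases before it. Windows were at hand for 27 of the 43 member genes, and for 14 of the 25 tested, of which 11 held an E-box. A match of letters is not a bound site.

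Genes that link these receptors to the skeleton, and their ligands, were taken from lists. Of 22 tested integrin linkers and signalling genes, 0 passed in any comparison. Without overlap, 9 lay above WT Scl- in WT Scl+ and 4 below it, where 18.9% and 18.5% of all genes did. In SclKO, 7 lay above WT Scl+ and 7 below it, beside 23.2% and 20.2% of all genes, and 9 lay above WT Scl- and 2 below it, beside 22.9% and 18.7%. Fermt3, the kindlin of blood cells that activates integrins, was at 8.68 and 8.61 in WT Scl+, 6.9 and 7.25 in WT Scl-, and 6.5 and 6.75 in SclKO. Its WT Scl+ arrays lay above all others, by 1.57 log units over WT Scl- (SE 0.18, limma adjusted p = 0.399), with SclKO at -2.02 from them (SE 0.18, limma adjusted p = 0.0638). Ptk2b, a focal adhesion kinase relative, differed by 1.55 (SE 0.46) and -1.44 (SE 0.46), the first being 0.92 without WT Scl- replicate 1. Src, a kinase downstream of integrins, lay 1.25 above WT Scl- in SclKO (SE 0.2, limma adjusted p = 0.797) and 1.02 above WT Scl+ (SE 0.2).

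Of 13 tested catenins and junction linkers, 0 passed in any comparison. Ctnna2, Ctnnd2 and Pkp1 were not tested. Without overlap, 3 lay above WT Scl- in WT Scl+ and 1 below it, where 18.9% and 18.5% of all genes did. In SclKO, 3 lay above WT Scl+ and 4 below it, beside 23.2% and 20.2% of all genes, and 4 lay above WT Scl- and 2 below it, beside 22.9% and 18.7%. Pkp2, a desmosome protein, and Jup (plakoglobin) lay lower in SclKO than in WT Scl+, by -0.92 (SE 0.37) and -0.76 log units (SE 0.26). These were -0.51 for Pkp2 without SclKO replicate 1 and -0.5 for Jup without WT Scl+ replicate 2. Of 22 tested integrin ligands, 0 passed in any comparison, and Vtn, Vcam1 and Madcam1 were not tested. Without overlap, 5 lay above WT Scl- in WT Scl+ and 5 below it, beside 18.9% and 18.5% of all genes. In SclKO, 5 lay above WT Scl+ and 9 below it, beside 23.2% and 20.2%. Against WT Scl- these were 4 and 3, beside 22.9% and 18.7%. Edil3, a secreted RGD protein that binds Itgav pairs, was at 5.45 and 5.75 in WT Scl+, 3.89 and 4.68 in WT Scl-, and 3.41 and 4.14 in SclKO. SclKO stood at -1.82 from WT Scl+ as measured (SE 0.35, limma adjusted p = 0.143) and at -1.03 at the limit, since both SclKO arrays were under it. Icam2, an endothelial ligand of leukocyte integrins, differed by 1.43 between WT Scl+ and WT Scl- (SE 0.45) and by -1.28 between SclKO and WT Scl+ (SE 0.45). The second was -0.83 without WT Scl+ replicate 2 and -0.82 without SclKO replicate 1. Col1a1 and Lama1 lay lower in WT Scl+ than in only 1 other group without overlap. For Col1a1, WT Scl+ stood at -1.38 from WT Scl- (SE 0.68), or -0.72 without WT Scl+ replicate 2. WT Scl- was its highest group, since SclKO stood at -1.37 from WT Scl- and at 0.01 from WT Scl+, the latter with overlap. Lama1 lay 0.86 higher in SclKO than in WT Scl+ (SE 0.2), or 0.66 without WT Scl+ replicate 2. The WT groups overlapped for Lama1 (-0.36, SE 0.2).

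Of 9 tested factors of epithelial to mesenchymal transition, 0 passed in any comparison. Without overlap, 2 lay above WT Scl- in WT Scl+ and 3 below it, where 18.9% and 18.5% of all genes did. In SclKO, 2 lay above WT Scl+ and 2 below it, beside 23.2% and 20.2%. Against WT Scl- these were 4 and 2, beside 22.9% and 18.7%. Snai1, a repressor of Cdh1, was at 5.79 and 4.97 in WT Scl+, 6.91 and 5.85 in WT Scl-, and 7.13 and 6.91 in SclKO. Its WT Scl+ arrays were lowest, as for Cdh2, with -1.0 against WT Scl- (SE 0.41) and SclKO 1.64 above them (SE 0.41, limma adjusted p = 0.194). The first was -0.47 without WT Scl- replicate 1, -0.59 without WT Scl+ replicate 2 and -1.53 without WT Scl- replicate 2. Snai2 was at 3.5 on WT Scl+ replicate 2 and between 6.54 and 7.0 on the other arrays, so its difference of -1.85 was -0.21 without that array. Twist1 was 0.84 higher in SclKO than in WT Scl- (SE 0.17, limma adjusted p = 0.81). Over WT Scl+ it was 0.89 higher (SE 0.17, limma adjusted p = 0.143), also without overlap. Zeb2 stood at -0.94 in SclKO from WT Scl+ (SE 0.34), or -0.49 without WT Scl+ replicate 2.

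The means of the endothelial, blood, endoderm, and streak and mesoderm lists kept WT Scl+ apart from each other group. Those of the epithelial, leukocyte and cardiac lists did not. The 6 tested endothelial markers of 7 had a mean level of 7.53 and 8.32 in WT Scl+, 5.03 and 7.07 in WT Scl-, and 5.41 and 6.29 in SclKO. Emcn was under the limit. Cdh5, on that list, was at 7.48 and 8.61 in WT Scl+, 5.51 and 7.47 in WT Scl-, and 5.82 and 6.77 in SclKO. The 7 blood and megakaryocyte markers were at 7.21 and 6.58, 5.14 and 5.54, and 4.71 and 4.97, in the same order of groups. The 6 streak and mesoderm markers measured were at 8.25 and 7.59, 9.36 and 8.92, and 9.49 and 9.3, lowest in WT Scl+ like Cdh2, Cdh11 and Itgb5. The 5 tested macrophage and leukocyte markers had a mean level from 5.67 to 5.96 over the arrays, with Ptprc and Lyz2 under the limit; single markers differed, Tyrobp by 0.54 and Cd68 by -0.51 for WT Scl+ against WT Scl-. The mean of the 5 tested endoderm markers (Afp was under the limit) was 5.98 and 5.88 in WT Scl+ and 5.32 and 5.48 in WT Scl-. It was 5.82 and 5.64 in SclKO, so WT Scl- was lowest. For WT Scl+ against WT Scl-, Sox17 differed by 1.51, Apoa1 by 0.58, Foxa2 by 0.41, Ttr by 0.28 and Hnf4a by -0.13. For SclKO against WT Scl+, Sox17 differed by -1.16 and Ttr by -0.34. Foxa2 (0.34), Apoa1 (0.13) and Hnf4a (0.06) went the other way there, so the endoderm markers did not move alike. The mean of the 6 cardiac and smooth muscle markers ran from 5.83 to 6.36, with Myl7 at -1.43. The part of these cell types in the differences of integrins and cadherins was not tested.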

How the data were processed

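Total RNA of 6 samples was measured on Affymetrix arrays. RMA, affy and limma are named, without versions or settings, per the submitters' processing notes. RMA subtracts background, makes the arrays' distributions alike and summarises each probe set. The deposited table, recorded here as a score of unstated scale, reached 2822995 and was not on a log scale, so its natural log (1.18 to 14.85) was analysed, as the test needed; 0 value columns were unused. GEO's platform annotation pairs 34958 probe sets with 1 gene and 932 with several; 9211 are unnamed. Names were brought to RefSeq (GRCm38.p6) by gene identifier for 34754 and left as given for 204, with 0 changes among the members.

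Each of 18194 genes was represented by its probe set with the highest mean. Genes above the 40th percentile of the array on 2 or more arrays were tested, 12923 in all. Means of 3 groups were fitted with limma 3.58.1 in R 4.3.3 (residual degrees of freedom 3, prior 3.15), two-sided eBayes, Benjamini-Hochberg over all genes, calls at an adjusted p under 0.05. Probe sets were fitted likewise (28363). The fit was tested on simulated data. An exact permutation test of 2 arrays against 2 cannot go below p = 0.333 and was not used. The number of arrays limits precision: the median SE of a difference was 0.191 over all genes and 0.237 over the members tested. Per-array values were given for a fixed set of 10 members and, per comparison, for up to 5 members with the largest difference in each direction without overlap of the arrays; other genes came from lists, up to 2 per list and comparison. Second probe sets were described after their values were seen. So were the single markers Cldn6, Krt8, Krt18, Nanog, Pou5f1, Tyrobp, Cd68, Sox17, Apoa1, Foxa2, Ttr, Hnf4a and Myl7. The members and lists were chosen with earlier results of these data known. A size at the limit sets values under the 40th percentile to it. Alternatives covered the probe set used, the filter, the limit, an intensity trend, the groups fitted, the replicate number and each array left out.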

Additional observations from a re-analysis of the deposited data

How the results depend on the processing

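With each array left out, calls over all genes ran from 0 to 203 between WT Scl+ and WT Scl- (0 as reported), from 0 to 699 between SclKO and WT Scl+ (1), and were 0 between SclKO and WT Scl- (1). Members called ran from 0 to 3, from 0 to 5, and were 0. Both highest values came without WT Scl+ replicate 1. Under the other settings 0 members were called in any comparison. For SclKO against WT Scl+, 3 probe sets were called with all probe sets, 4 genes with the mean of a gene's probe sets, 9 with the filter at the 60th percentile, 7 with values under the limit set to it, 18 with an intensity trend and 49 with only the 2 groups fitted. For SclKO against WT Scl- these counts were 3, 4, 2, 2, 3 and 0.

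The median difference of integrins between WT Scl+ and WT Scl- was -0.08 over all probe sets, 0.0 with the mean of probe sets, 0.15 without a filter and -0.08 at the 60th percentile, and ran from -0.08 to 0.08 with an array left out. For SclKO against WT Scl+ it was 0.13, 0.16, -0.04 and 0.21, and ran from -0.02 to 0.13. For SclKO against WT Scl- it was 0.11 without a filter and ran from 0.02 to 0.14. For cadherins the medians were -0.07 over all probe sets, 0.03 without a filter and -0.66 at the 60th percentile between WT Scl+ and WT Scl-, and ran from -0.1 to -0.01. They were 0.42, 0.04 and 0.84 between SclKO and WT Scl+, and ran from 0.0 to 0.28. The median between SclKO and WT Scl- was 0.09 without a filter and ran from 0.05 to 0.22. The settings change which probe sets or genes enter a median; the cause beyond that was not tested.

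Same-numbered arrays deviated together, with correlations of 0.254, 0.247 and 0.249, but each comparison has only 2 pairs and no label says what a number marks. With the replicate number as a block, 3 genes were called between SclKO and WT Scl+, 1 between SclKO and WT Scl- and 0 between the WT groups, and 0 members in each. Among the values, under an alternative, of members named for their size, 372 kept their direction and side of the threshold. The rest kept their direction and came from leaving out WT Scl+ replicate 1. These members were picked for arrays that did not overlap, so leaving an array out could not change their direction. Cdh1 between SclKO and WT Scl+, where the groups overlapped, went from 0.18 to -0.61 without WT Scl+ replicate 2. Signal near the limit bounds the differences of Itga4, Itgb3, Itga8 and Itga1.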
